A study of Mus musculus with 2 samples.

Results

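The 9 genes described here are the p53 family (Trp53, Trp63 and Trp73), its inhibitors Mdm2 and Mdm4, the stress protein gene Nupr1, and the homeodomain-interacting protein kinases Hipk1, Hipk2 and Hipk3. They were taken by name, as a list drawn up with earlier results of these data known, and no threshold on a measured value was part of the rule. The array carried 17 probes for them, of 27235 probes for 20660 genes that could be named. They were measured in pre CFU-E, primitive erythroid progenitors that were sorted from the bone marrow of femora and tibiae as lineage-negative (Lin-) cells that were c-Kit+ but Sca1-, endoglin+ and CD150+, with CD41Lo and FCgRII/III-/Lo staining. All mice were on the C57BL/6 strain, were 8 to 12 weeks old and had received a single injection of 120 mg/kg of the cytotoxic pyrimidine analogue 5-fluorouracil (5-FU) 8 days before sacrifice, so that no untreated cells were measured. One group was wild type (WT) and the other lacked the endothelial cell-selective adhesion molecule (ESAM-KO), a surface protein of hematopoietic stem cells and endothelium. The question was which transcripts of these progenitors differ between the genotypes while the marrow recovers from 5-FU. Each genotype was represented by 1 array, hybridised with amplified RNA from a pool of 3 mice, so that the values carry neither an SD nor a p-value, and the genotypes cannot be told apart from their pools, sorts or amplifications.

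The transcription factor p53, encoded by Trp53, is held at a low level by the ubiquitin ligase Mdm2 and is inhibited by the related protein Mdm4. Damage to DNA or to ribosome production, the latter being a known action of 5-FU, frees p53 from both inhibitors, after which it can arrest the cell cycle or induce apoptosis. The Hipk kinases are nuclear kinases that phosphorylate p53 and other transcriptional regulators, and Hipk2 has been linked both to p53-dependent apoptosis and to terminal erythroid differentiation. Erythroid progenitors are known to be sensitive to p53, and loss of Mdm2 or Mdm4 in mice impairs red cell formation.

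The intensity of each spot was corrected for background within its array, and the log2 intensity was set relative to the 75th percentile of the array, which was 201.4 for WT and 251.1 for ESAM-KO. A log2 ratio is ESAM-KO over WT, and a probe or gene is counted as past 2-fold where the size of its ratio is above 2-fold. The error beside a log2 ratio is the one stated by the scanner software for the spots, which was 0.20 to 0.30 for these genes and does not cover differences between pools. Without scaling, every log2 ratio lies 0.32 higher. Of the 14136 named genes that had a ratio, 1191 (8.43%) were past 2-fold lower and 988 (6.99%) past 2-fold higher in ESAM-KO, and these counts became 729 and 1804 without scaling and 1513 and 751 with scaling to the median. The Esam probe had an intensity of 27.4 in WT against 20.6 in ESAM-KO, for a log2 ratio of -0.73 ± 0.31, and its position relative to the deleted part of the gene was not examined. All 8 erythroid markers were well above background on both arrays, with a median log2 ratio of -0.33. Markers of neutrophils moved with the genotype, as all 8 that were on the array were past 2-fold lower in ESAM-KO, with log2 ratios from -4.20 to -1.64. Their summed signal, in multiples of the 75th percentile, was 243 in WT against 35.5 in ESAM-KO. Of the 8 markers of mast cells, basophils and eosinophils, 4 were past 2-fold lower (the eosinophil genes Prg2, Epx and Ear1, with log2 ratios from -4.33 to -3.76, and the basophil gene Prss34, as a bound), and Ms4a2 was at least 2.61-fold higher. Their summed signal was 12.7 in WT against 1.03 in ESAM-KO, and Cpa3, Mcpt8 and Fcer1a were near background on both arrays. Of the 8 B cell markers, 5 were past 2-fold lower, with a summed signal of 3.04 in WT against 0.94 in ESAM-KO. Of 7 macrophage markers, Vcam1 (-2.88) was past 2-fold lower and C1qa (1.19) higher. Of 6 endothelial markers, Pecam1 (-1.99) was past 2-fold lower and Tek was at least 2.14-fold higher. The 4 measured on both arrays, which included the deleted gene Esam (-0.73), lay below 0, with a median of -0.84. Of 8 T and NK cell markers, Cd3d was at least 3.75-fold lower. The 3 measured on both arrays, Cd3e (0.42), Cd4 (0.62) and Lck (0.04), lay above 0 and within 2-fold. Another Cd4 probe had a log2 ratio of -0.06. The summed signal of these T and NK cell markers was higher in ESAM-KO. Of 8 megakaryocyte markers, 2 were past 2-fold lower and 2 higher. The part of these cells in the values below was not tested. In a sorted pool, fewer cells that express a gene and less of its RNA per cell cannot be told apart.

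The 9 genes had 15 probes measured well above background on both arrays, of which 3 (20%) were past 2-fold lower in ESAM-KO and 0 past 2-fold higher. The background shares over all 18366 named probes with a ratio were 8.65% lower and 7.86% higher. These shares and those over genes also count bounds, from probes well above background on 1 array only. Without bounds, 930 of the 12615 named genes measured on both arrays were past 2-fold lower and 659 higher. The 3 probes came from Hipk2, with both of its probes, and Hipk3, with 1 of 2. With each gene taken at its brightest probe, 1 of 9 genes, Hipk2, was past 2-fold lower, against 8.43% of the named genes with a ratio, and 0 were past 2-fold higher, against 6.99%. Of the 9 genes, 4 lay below 0 and 5 above, and their median log2 ratio was 0.11, against -0.02 over the 12615 named genes measured on both arrays. Probes of 1 gene share their transcripts, so the 2 Hipk2 probes are not independent samples.

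**Figure D1:**
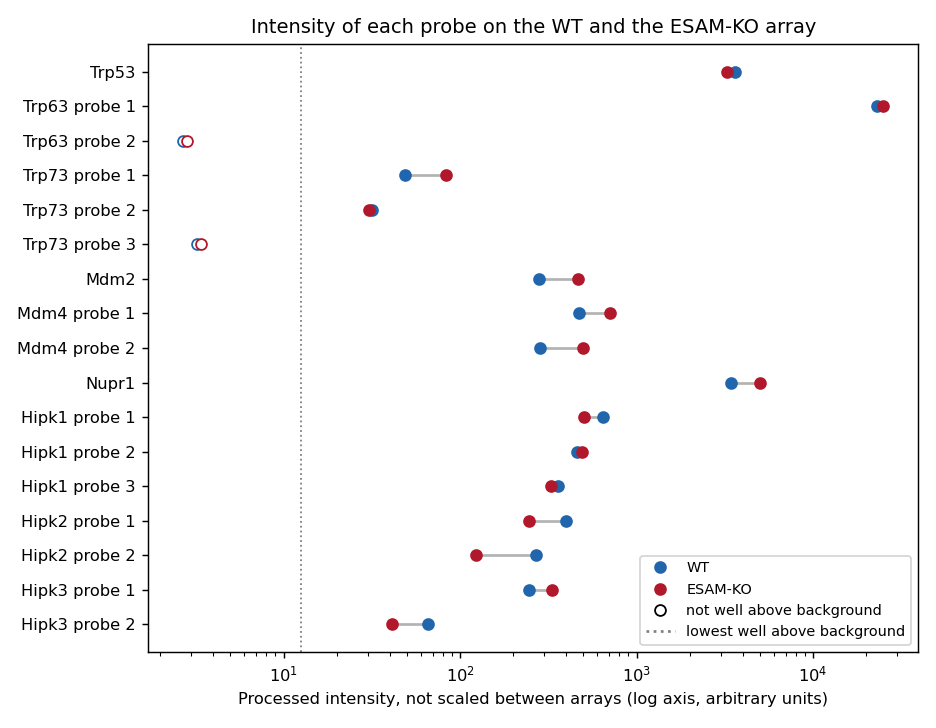
Processed intensity of each of the 17 probes on the WT (blue) and the ESAM-KO (red) array, on a log axis in arbitrary units and not scaled between arrays; open circles are not well above background, and the dotted line marks the lowest intensity well above background on the WT array, 12.6. The 2 open pairs are a probe of Trp63 and a probe of Trp73, and the Hipk2 pairs lie with ESAM-KO to the left of WT while the Mdm2 and Mdm4 pairs lie with ESAM-KO to the right.

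At the brightest probe of each gene, Hipk2 and Hipk1 had the lowest ratios of the 9 genes, and with the mean of a gene's probes Hipk2 and Trp53 did. Hipk2 was measured by 2 probes, both assigned to the RefSeq transcript NM_001136065. The brighter had an intensity of 401 in WT against 247 in ESAM-KO, for a log2 ratio of -1.02 ± 0.21 or 2.02-fold lower, and 7.13% of the measured genes had a lower ratio. The dimmer had 270 in WT against 123 in ESAM-KO, for a log2 ratio of -1.45 ± 0.21 or 2.74-fold lower, with 3.47% of the measured genes below it. ESAM-KO was therefore the lower array at both probes, and their ratios differed by 0.44. For comparison, the ratios of 2568 genes with exactly 2 measured probes differed between the 2 by a median of 0.42, and 48.4% of those genes had a larger difference than Hipk2. Over 6 ways of scaling the arrays, which included none and 1 with another background correction (normexp), the dimmer probe stayed past 2-fold in 6 (-1.58 to -1.11) and the brighter in 3 (-1.15 to -0.70), and both were below 0 in every one. The lower Hipk2 signal stood beside the lower neutrophil, eosinophil and B cell markers given above, and their part in it was not tested.

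Hipk1, whose functions overlap with those of Hipk2 in mouse development, was measured by 3 probes of NM_010432, none past 2-fold. The brightest gave an intensity of 644 in WT against 502 in ESAM-KO, for a log2 ratio of -0.68 ± 0.20. The others gave 457 and 488, a log2 ratio of -0.23 ± 0.20, and 358 and 326, a log2 ratio of -0.46 ± 0.20. All 3 ratios were thus below 0, although that of the second probe became 0.09 without scaling, and the other 2 stayed below 0 under all 6 scalings.

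The probes of Hipk3, a kinase that has been linked to the Fas receptor complex, differed in direction. Its brighter probe, of NM_010434, had an intensity of 247 in WT against 333 in ESAM-KO, for a log2 ratio of 0.11 ± 0.21, which became -0.02 when the arrays were scaled to the median. Its dimmer probe, of the same transcript, had 65.8 in WT against 41.0 in ESAM-KO, for a log2 ratio of -1.0 ± 0.23. This second value lay just past the 2-fold criterion, and was past it under 3 of the 6 scalings. The 2 ratios differed by 1.11, and 17.8% of the genes with 2 measured probes had a larger difference, so that the data give no single direction for Hipk3. In all, 6 of the 7 Hipk probes lay below 0, and 5 of 7 without scaling. The fourth family member, Hipk4, had a log2 ratio of 0.01, from 777 in WT to 976 in ESAM-KO.

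**Figure D2:**
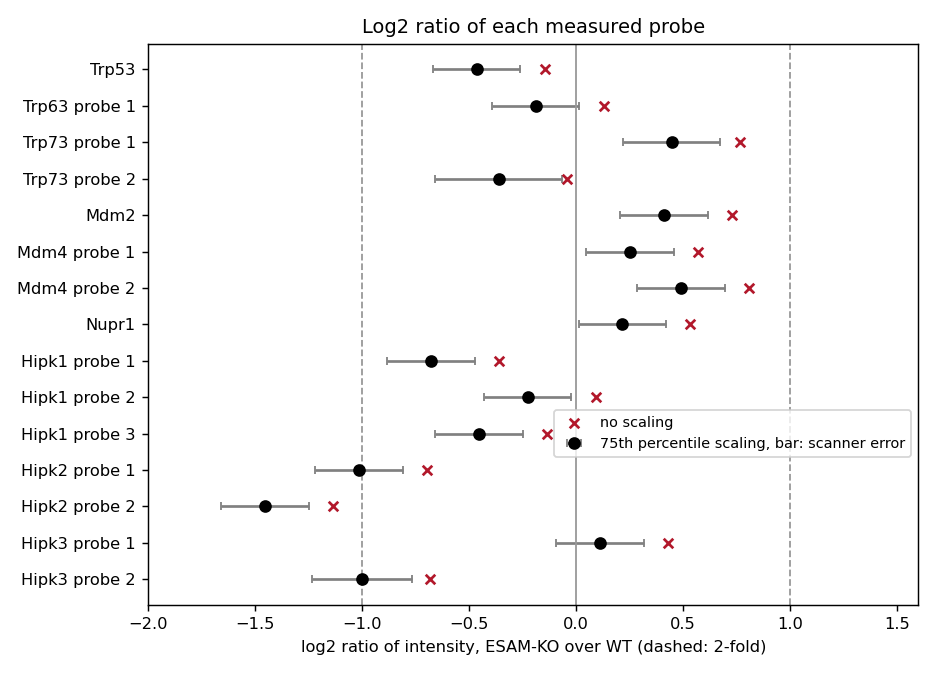
Log2 ratio of ESAM-KO over WT for the 15 probes measured on both arrays (horizontal axis, dashed lines at 2-fold), scaled to the 75th percentile (black, with the error stated by the scanner software) and without scaling (red crosses). Both Hipk2 probes and the second Hipk3 probe reach the lower 2-fold line after scaling, all Mdm2, Mdm4 and Nupr1 points lie above 0, and without scaling only the second Hipk2 probe is past 2-fold.

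RefSeq holds 7 transcripts of Hipk2, and the table of promoters used here gives 2 start sites for it. The 250 bases before each are shown because both Hipk2 probes were lower and because the study singled out the erythroid factor Gata1, whose GATA motif was searched in them. The motif was taken as GATA with A or T before it and A or G after it, on either strand, and the match is in capitals. Both stretches are from GRCm38.p6 on the minus strand, at chr6:38876191-38876440 and chr6:38837312-38837561, and are written in the direction of transcription.
Hipk2, first start: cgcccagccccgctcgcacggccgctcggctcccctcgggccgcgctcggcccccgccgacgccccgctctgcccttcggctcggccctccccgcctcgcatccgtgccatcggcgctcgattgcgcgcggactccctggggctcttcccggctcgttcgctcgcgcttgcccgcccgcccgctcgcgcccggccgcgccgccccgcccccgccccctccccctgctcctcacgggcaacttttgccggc
Hipk2, second start: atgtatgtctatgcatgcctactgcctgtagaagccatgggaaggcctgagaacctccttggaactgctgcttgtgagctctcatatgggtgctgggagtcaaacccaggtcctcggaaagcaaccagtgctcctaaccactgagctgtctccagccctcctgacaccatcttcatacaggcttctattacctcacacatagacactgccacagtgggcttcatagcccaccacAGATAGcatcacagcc
The first start lies in sequence with 80.8% G and C and 43 CpG dinucleotides, and no GATA motif was found in it. The second has 52.8% G and C and 1 CpG, and holds AGATAG 16 bases before the start. Over 32851 windows of the same length before RefSeq starts, the median was 52.4% G and C and 6 CpG, and 26.5% held a GATA motif. Of the 12 windows found for 8 of the 9 genes (Trp63 had none in the table), 2 held it, the other being 1 of the 2 windows of Mdm4 at chr1:133025417-133025666. Gata1 itself had an intensity of 5959 in WT against 5889 in ESAM-KO, for a log2 ratio of -0.34 ± 0.20, which was -0.02 without scaling. Which of the Hipk2 starts was in use in these cells cannot be read from the array, and a match is a description of the letters only.

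Trp53 itself was slightly lower in ESAM-KO. Its single probe, of NM_011640, was present as 2 spots, with intensities of 3618 and 3562 in WT and of 3297 and 3188 in ESAM-KO. Their log2 ratios were -0.45 and -0.48, and the mean of the probe was -0.47 ± 0.20, with 20.9% of measured genes lower. The ratio was below 0 under all 6 scalings (-0.59 to -0.15) and was 1.38-fold in size, within the 2-fold criterion. For scale, among 199 probes with 9 or 10 spots the SD of the log2 ratio between the spots of 1 probe had a median of 0.12. Because p53 is controlled chiefly at the level of its protein, the array does not measure its activity.

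Trp63 and Trp73 encode the relatives p63, best known from the basal layer of epithelia, and p73, known from ciliated epithelia and neurons. The 2 Trp63 probes belong to different RefSeq transcripts of a gene with 11. That of NM_001127261 was bright on both arrays, with an intensity of 22887 in WT against 25035 in ESAM-KO, for a log2 ratio of -0.19 ± 0.20, which turned to 0.13 without scaling. That of NM_011641 lay near background on both arrays (2.71 and 2.85, not well above it) and has no ratio. The bright probe is a single spot, and what it hybridised to was not tested.

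Trp73 was measured by 3 probes of NM_011642. The brightest had an intensity of 48.7 in WT against 82.8 in ESAM-KO, for a log2 ratio of 0.45 ± 0.23. The next had 31.6 in WT against 30.6 in ESAM-KO, for a log2 ratio of -0.36 ± 0.30, and the last was near background on both (3.22 and 3.42, not well above it). The signs of the 2 measured probes stayed opposed under all 6 scalings, at 0.09 to 0.76 and at -0.50 to -0.04. Their difference of 0.81 was exceeded by 27.8% of the genes with 2 measured probes, so that no direction can be given for Trp73.

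Transcripts of both p53 inhibitors had higher signals in ESAM-KO, within 2-fold. Mdm2, the ubiquitin ligase that marks p53 for degradation and is itself a target of p53, had an intensity of 280 in WT against 465 in ESAM-KO at its probe of NM_010786. Its log2 ratio was 0.41 ± 0.20, and 79.1% of the measured genes had a lower one. Mdm4, which lacks ligase activity of its own and blocks the activation domain of p53, had 474 in WT against 703 in ESAM-KO at the brighter of its 2 probes of NM_008575, a log2 ratio of 0.25 ± 0.20. The dimmer gave 282 in WT against 494 in ESAM-KO, for a log2 ratio of 0.49 ± 0.20. All 3 probes lay above 0 under all 6 scalings, at 0.24 to 0.73 for Mdm2 and at 0.12 to 0.57 and 0.36 to 0.81 for Mdm4. The Mdm4 probes differed by 0.24, less than the 0.42 that is the median of genes with 2 measured probes. Mdm2 and Mdm4 thus lay above 0 where Trp53 lay below, though neither inhibitor nor Trp53 was past 2-fold.

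The 250 bases before the starts of Mdm2 and Trp53 are shown because they held the only matches among the 12 windows to the half-site bound by p53, searched on both strands. Both are from GRCm38.p6, Mdm2 at chr10:117710759-117711008 on the minus strand and Trp53 at chr11:69580109-69580358 on the plus strand, written in the direction of transcription with the half-site in capitals.
Mdm2: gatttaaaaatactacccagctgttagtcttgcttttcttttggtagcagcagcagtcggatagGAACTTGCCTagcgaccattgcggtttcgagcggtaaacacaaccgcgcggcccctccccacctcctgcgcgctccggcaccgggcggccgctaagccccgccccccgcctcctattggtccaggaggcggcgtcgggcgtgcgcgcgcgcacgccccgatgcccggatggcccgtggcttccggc
Trp53: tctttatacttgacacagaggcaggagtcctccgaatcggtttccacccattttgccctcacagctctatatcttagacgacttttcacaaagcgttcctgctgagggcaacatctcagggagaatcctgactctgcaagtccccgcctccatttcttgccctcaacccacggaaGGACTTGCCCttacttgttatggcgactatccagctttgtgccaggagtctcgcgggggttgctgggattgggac
The half-site lies 186 bases before the start of Mdm2 and 75 bases before that of Trp53. A half-site was present in 7.13% of all windows. A pair of half-sites 0 to 13 bases apart, the full form of the element, was present in 0.0639% of all windows and in 0 of the 12. The p53-responsive promoter of Mdm2 is known to lie within the gene, downstream of this window.

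Nupr1, a small chromatin-associated protein that is induced by many forms of cellular stress, was within 2-fold. Its probe of NM_019738 had an intensity of 3446 in WT against 4991 in ESAM-KO, for a log2 ratio of 0.22 ± 0.20, and stayed above 0 under all 6 scalings (0.09 to 0.53). Of 8 genes that act with Nupr1 or in the integrated stress response, 0 were past 2-fold in either direction, beside background shares of 8.43% lower and 6.99% higher, and their median log2 ratio was 0.16. At the brightest probe 6 of the 8 lay above 0, with Chac1 the highest at 0.73. The 2 below 0 were Ddit3 (-0.08) and Trib3 (-0.15). Atf4, the factor that drives that response, had a log2 ratio of 0.16 at its brightest probe and -0.43 at another.

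**Figure D3:**
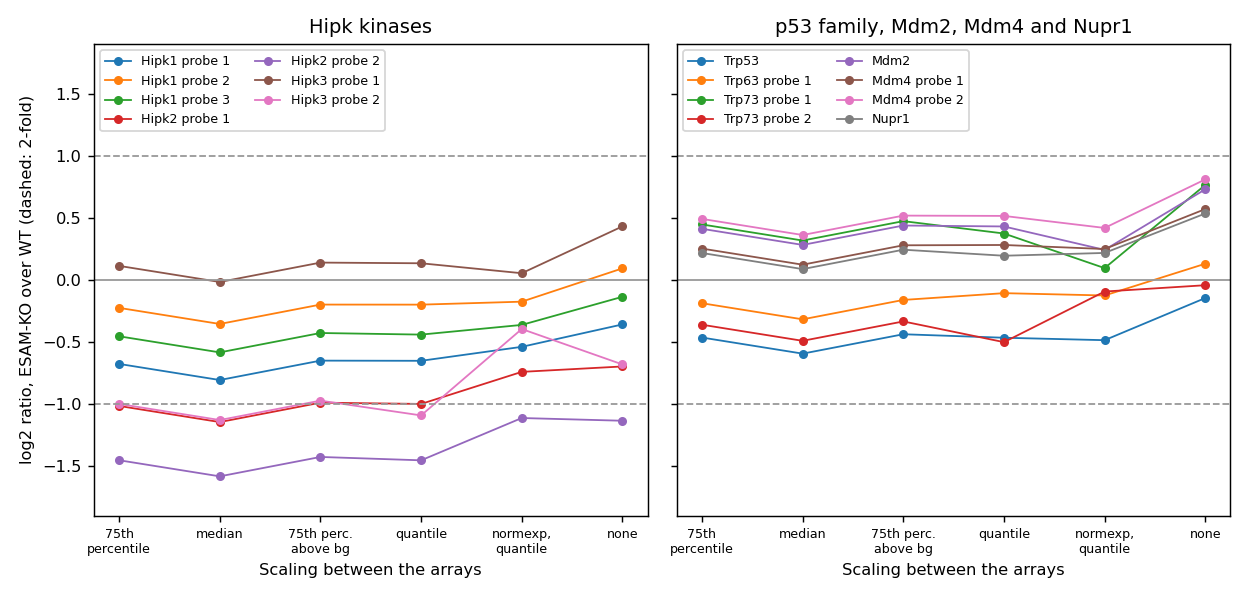
Log2 ratio of ESAM-KO over WT (vertical axis, dashed lines at 2-fold) for each measured probe under 6 scalings of the arrays (horizontal axis), with the Hipk kinases on the left and the other genes on the right. The second Hipk2 probe is below -1 under all 6, the second Hipk1 probe and Trp63 cross 0 without scaling, and the first Hipk3 probe crosses 0 with scaling to the median.

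The genes that act on or with these proteins were described as 6 lists of 78 genes in all, each taken at its brightest probe. Of the 78, 3 (3.85%) were past 2-fold lower and 2 (2.56%) higher in ESAM-KO, beside background shares of 8.43% and 6.99%, and their median log2 ratio was 0.02. Among 13 ubiquitin ligases and deubiquitinases of p53 and Mdm2, 2 were lower and 1 higher past 2-fold. Rchy1 (Pirh2), a ligase that targets p53, had an intensity of 196 in WT against 561 in ESAM-KO, for a log2 ratio of 1.20. Trim24, another ligase of p53, had 316 in WT against 194 in ESAM-KO, for a log2 ratio of -1.02, with -1.23 at its other probe. Usp2, a deubiquitinase of Mdm2, had 29.0 in WT and was not well above background in ESAM-KO, at least 2.75-fold lower. Usp7, the deubiquitinase of both p53 and Mdm2, had a log2 ratio of 0.28 and 0.88 at its 2 probes.

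Of 23 kinases and other modifiers of p53, 1 was past 2-fold. The background shares for this and the following lists were 8.43% lower and 6.99% higher. The gene past 2-fold was Chek1, the checkpoint kinase of replication stress, with an intensity of 155 in WT against 464 in ESAM-KO and with a log2 ratio of 1.26. Mapk8 had -0.29 at its brightest probe and -1.66 at another, while a further probe was well above background in ESAM-KO only, so its probes disagree. The DNA damage kinases Atm and Atr had log2 ratios of -0.21 and 0.05. None of the 10 cofactors of p53 was past 2-fold (median 0.12 over the 9 measured on both arrays). Transcripts of the 8 genes listed around Mdm2 and failing ribosome production were also within 2-fold, with a median of -0.29, 7 below 0 and Npm1 at 0.19. Among these, Rpl5 had a log2 ratio of -0.26 and Rpl11 of -0.31, and Cdkn2a, whose product Arf sequesters Mdm2, was near background with 19.7 in WT against 18.0 in ESAM-KO. Among 16 partners and regulators of the Hipk kinases, 1 was past 2-fold lower, the zinc finger gene Zbtb4, with an intensity of 79.0 in WT and no signal well above background in ESAM-KO at its brightest probe (at least 7.49-fold lower). Another Zbtb4 probe was well above background in ESAM-KO and not in WT, so its probes disagree. Daxx, an adaptor that Hipk1 and Hipk2 phosphorylate, had a log2 ratio of 0.01.

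Of 30 established targets of p53, 29 were on the array and 24 were measured on both, with a median log2 ratio of 0.09. Of those with a ratio, 2 were past 2-fold lower and 1 higher, beside background shares of 8.43% and 6.99%. Cdkn1a, the cyclin-dependent kinase inhibitor p21, had an intensity of 347 in WT against 130 in ESAM-KO, for a log2 ratio of -1.74, and its other probe was well above background in WT only. Xpc, a damage sensor of nucleotide excision repair, had 44.2 in WT against 20.2 in ESAM-KO, for a log2 ratio of -1.44 ± 0.31. Perp, a membrane protein linked to p53-dependent apoptosis, had 24.9 in WT against 74.9 in ESAM-KO, for a log2 ratio of 1.27 ± 0.28. Each rests on 1 probe, and its dimmer value lies near the lowest intensity well above background (12.6 in WT, 13.2 in ESAM-KO). The pro-apoptotic genes Bbc3 (Puma) and Bax had -0.54 and 0.36. The targets therefore did not share a direction, with 14 above 0 and 10 below, and Fas, Eda2r, Plk2 and Tigar were not well above background on either array.

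**Figure D4:**
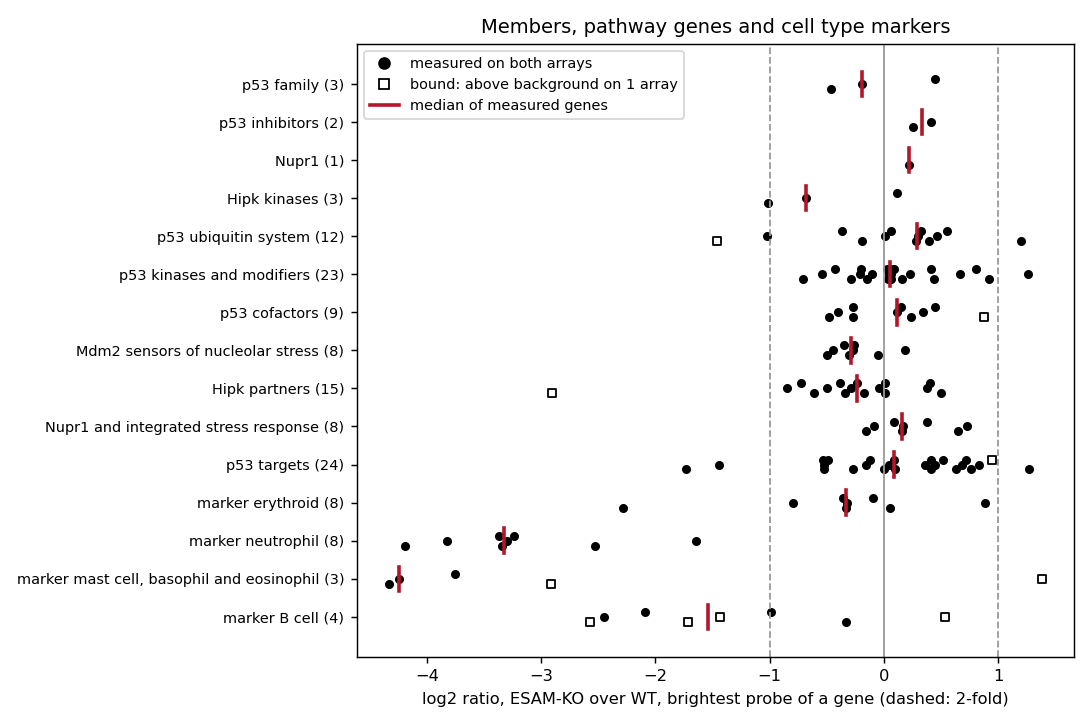
Log2 ratio of ESAM-KO over WT (horizontal axis, dashed lines at 2-fold) of each gene at its brightest probe, by list, with the number of genes measured on both arrays in brackets; filled points were measured on both arrays, open squares are bounds, and red bars are medians of the measured genes. Medians of the lists around p53 and the Hipk kinases lie between -0.68 and 0.33, while the median of the 8 neutrophil markers is -3.32.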

How the data were processed

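After 5-FU, pre CFU-E of WT mice and of ESAM-KO mice were compared on Agilent SurePrint G3 mouse arrays, with 1 array per genotype, sharing a slide and a scan. The RNA had been amplified by whole transcriptome amplification before Cy3 labelling. The files deposited by the authors come from Agilent Feature Extraction 10.10.1.1, and in them the intensity of every spot is background-subtracted and detrended within the array and not scaled between arrays. A deposited table of the series gives these intensity values with 3 significant digits.

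Control spots were left out, which left 59305 spots, of which 0 were saturated. Outlier spots (254) were then left out of the probe values, which were for 55680 probes. The log2 intensity minus the 75th percentile of all spots of its array was averaged over the spots of a probe. A probe was called well above background if over 50% of its spots carried that flag, which held for 57.3% of spots in WT and 61.1% in ESAM-KO. Where this held on 1 array only, the ratio is a bound against the higher of the dim probe's signal and the lowest intensity well above background on that array (12.6 in WT, 13.2 in ESAM-KO, unscaled). Accessions were matched to RefSeq (GRCm38.p6, names only), which named 26083 of 26536 probes with an NM accession. Promoter sequences are from RefSeq GRCm38.p6.

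All probes of the 9 genes are given, with Esam, Gata1 and Cdkn2a. Of the other lists, genes past 2-fold were to be named; other members were named for their roles after values were seen. The members and lists were chosen with earlier results of these data known. No test was run, since each genotype has 1 array, and the number of arrays limits the precision. Python 3.11.15, numpy 2.4.6, pandas 2.3.3, R 4.3.3 and limma 3.58.1 were used, and the counting was tested on simulated data. Other scalings, normexp with an offset of 50 (on median spot signals), other filters and other thresholds were alternatives.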

Additional observations from a re-analysis of the deposited data

How the results depend on the processing

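The count of 3 probes past 2-fold became 1 without scaling, 1 with scaling to the 75th percentile of probes above background, 1 with normexp and quantile normalization, and 0 at a 3-fold threshold. The count of 1 gene, Hipk2, became 0 under each of these 4 settings and 2 at a 1.5-fold threshold. The median log2 ratio of the 9 genes, 0.11, became 0.43 without scaling and -0.19 with the mean of a gene's probes. It was 0.16 without Trp63, an alternative chosen after seeing the data. With the mean of its probes, Hipk2 had a log2 ratio of -1.24, Hipk3 -0.44 and Trp73 0.04. Of 135 values of single probes under the alternatives, 116 moved by less than the scanner error, 19 moved by more, and 0 that were past 2-fold changed sign. The 116 are no measure of stability, since the other filters, kept outlier spots and the rounded series values could hardly move these probes. Without scaling every probe moved by 0.32, more than the largest scanner error of 0.30. Normexp left fewer genes past 2-fold over the whole array, 236 higher and 486 lower, against 988 and 1191. No paired analysis was possible because the genotypes have 1 array each. Probes such as those of Trp73, with intensities under 100, lie nearer to the lowest intensity well above background and have the largest scanner errors. The calls of the brighter Hipk2 probe and of the dimmer Hipk3 probe changed with the scaling, and both were lost when normexp preceded the quantile normalization (-0.74 and -0.40) and kept with quantile normalization alone.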
